A study of Homo sapiens with 6 samples.

Results

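The genes described here are 9 of the 58884 genes in the deposited table, taken by their gene symbols. These 9 are only a part of the plasminogen activation system and the tissue factor pathway, and other genes of both are given below as partners. They are PLAU, PLAT, PLAUR, SERPINE2, F3, TFPI, TFPI2, PROCR and THBD, and each symbol had 1 row. Their RNA was measured by RNA sequencing in DBTRG cells, an established human glioblastoma line, labelled WT, after 5 days in a soft gel (3D) or on a rigid dish (2D), with 3 libraries in each group. The labels give no gel material, stiffness or drug treatment. They also do not say whether the libraries of a group came from separate cultures, so the spread that p-values rest on may be technical.

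Plasminogen activators are serine proteases that cut plasminogen to plasmin, which dissolves fibrin and degrades matrix proteins. The urokinase activator, encoded by PLAU, is held at the cell surface by its receptor, encoded by PLAUR, and this pair is known in glioma for its link to invasion. Tissue factor, encoded by F3, is the cell surface receptor for factor VIIa and starts blood clotting. Serpins and Kunitz-type inhibitors hold both arms in check, and the endothelial protein C receptor and thrombomodulin, encoded by PROCR and THBD, turn thrombin towards anticoagulation.

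In soft gel, both plasminogen activators, the urokinase receptor, tissue factor and the protein C receptor were lower, and the inhibitors SERPINE2 and TFPI2 were higher. Of 9 genes, 8 passed the filter on low counts and were tested, and 7 changed at an edgeR quasi-likelihood adjusted p below 0.05 (Benjamini-Hochberg over all 16098 genes tested), with 5 lower and 2 higher. Over all genes tested, 28.6% changed, 13.2% lower and 15.4% higher. In those 7 genes every soft gel library lay on one side of every rigid dish library in CPM (counts scaled to library size), which held for 44.6% of all genes tested. The median log2 fold change of the 8 tested genes was -0.85, against 0.05 over all genes tested. Each log2 fold change sets soft gel over rigid dish and comes with its standard error (SE). Fewer cells making a transcript and less of it per cell cannot be told apart in bulk RNA.

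**Figure D1:**
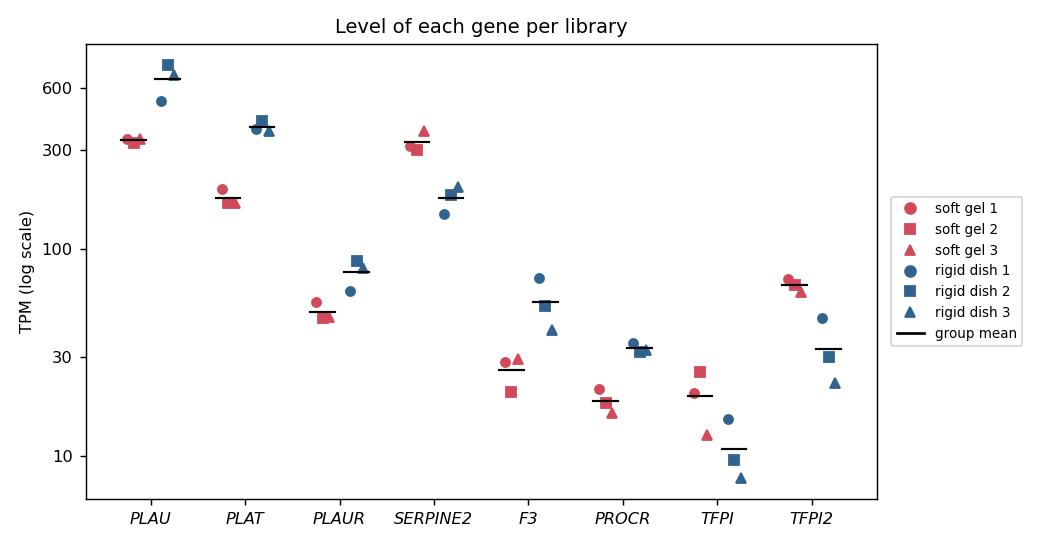
TPM (transcripts scaled to gene length and library size, log axis) of the 8 tested genes in each library, with soft gel left of rigid dish for each gene. Points are libraries and black lines are group means. PLAU averaged 335 TPM in soft gel and 662 TPM on the rigid dish, and the groups overlapped for TFPI.

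The letters TGANTCA are a looser form of TGAGTCA, the core to which AP-1 transcription factors bind. The core promoters of F3, PLAUR and TFPI2 are shown because each holds TGANTCA, while the genes moved in different directions. Each runs 5′ to 3′ on the strand of its gene, from 250 bases before the start to 50 bases from it (RefSeq, GRCh38.p14), and capitals mark the matches. The windows are chr1:94541710-94542009 for F3, chr19:43670120-43670419 for PLAUR and chr7:93890704-93891003 for TFPI2, all on the minus strand.
F3: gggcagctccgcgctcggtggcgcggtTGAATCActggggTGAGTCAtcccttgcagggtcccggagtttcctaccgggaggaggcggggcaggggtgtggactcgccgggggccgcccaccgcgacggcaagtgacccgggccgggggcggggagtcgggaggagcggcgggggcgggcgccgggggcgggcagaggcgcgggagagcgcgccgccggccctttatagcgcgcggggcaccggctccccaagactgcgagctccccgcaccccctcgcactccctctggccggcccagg
PLAUR: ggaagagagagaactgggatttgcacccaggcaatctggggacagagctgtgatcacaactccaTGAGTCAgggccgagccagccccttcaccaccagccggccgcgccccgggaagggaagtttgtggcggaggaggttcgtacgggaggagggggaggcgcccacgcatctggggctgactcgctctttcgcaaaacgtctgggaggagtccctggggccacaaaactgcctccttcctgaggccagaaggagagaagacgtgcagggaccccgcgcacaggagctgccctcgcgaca
TFPI2: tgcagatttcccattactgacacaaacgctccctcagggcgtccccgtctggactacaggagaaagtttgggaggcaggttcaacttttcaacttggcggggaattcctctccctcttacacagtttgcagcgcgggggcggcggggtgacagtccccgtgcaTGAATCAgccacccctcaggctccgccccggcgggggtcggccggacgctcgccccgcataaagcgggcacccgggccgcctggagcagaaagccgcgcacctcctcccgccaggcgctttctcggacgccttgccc
In F3 the matches began 223 and 210 bases before the start, in PLAUR 186 bases and in TFPI2 87 bases before it. The nearer F3 match and the PLAUR match read TGAGTCA. The farther F3 match and the only TFPI2 match read TGAATCA, which differs from that core. A promoter entry was given for 7 of the 9 genes, 9 promoters in all, and of these 7 genes only F3, PLAUR and TFPI2 held TGANTCA. These letters read alike on both strands, and 7.71% of 35116 promoters held them. The letters GGGCGG, bound by SP1, were present in promoters of PLAU, SERPINE2, F3, TFPI2 and PROCR, and in 45.0% of all promoters on either strand. The letters TATAAA were found, on the opposite strand, in F3 and PROCR, and on either strand in 11.5% of all promoters. The letters GGAATG, the core for TEAD factors, were in 14% of all promoters and in none of the 9. A match is letters only and was not set against binding data.

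PLAU had the highest mean TPM of the 9 genes in both groups, close to that of SERPINE2 in soft gel. PLAU (ENSG00000122861, hg38 chromosome 10, 73909177 to 73917497, plus strand) stood at 341, 323 and 341 TPM in soft gel, against 519, 776 and 689.8 TPM on the rigid dish. The soft gel libraries lay close together and below all rigid dish libraries, of which replicate 1 was the lowest. On the log2 scale the change was -1.08 (SE 0.195, edgeR adjusted p = 0.00514), a fold of 0.472. By mean TPM, PLAU ranked 337 of 19945 protein-coding genes in soft gel and 195 on the rigid dish. PLAU shares 916 exonic bases with C10orf55 on the opposite strand, and no strand setting is given in the sources used here. C10orf55 was listed at 2.34 to 2.63 TPM in soft gel and 3.32 to 4.93 TPM on the rigid dish.

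PLAT, which encodes tissue plasminogen activator, the fibrin-bound activator also made by neurons and glia, had the lowest fold. PLAT (ENSG00000104368, chromosome 8, 42175233 to 42207724, minus strand) was at 195, 167 and 167 TPM in soft gel, against 380.3, 414 and 373 TPM on the rigid dish. The groups were well separated and each was narrow. Its log2 fold change was -1.24 (SE 0.132, edgeR adjusted p = 0.000646), a fold of 0.425.

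PLAUR, the glycolipid-anchored receptor that holds urokinase on the membrane, had the smallest change among the genes that fell. PLAUR (ENSG00000011422, chromosome 19, 43646095 to 43670547, minus strand) was at 55.3, 46.3 and 47.1 TPM in soft gel, against 62.8, 87.0 and 80.8 TPM on the rigid dish. Rigid dish 1 was nearest to the soft gel libraries, as it was for PLAU. The log2 fold change was -0.74 (SE 0.181, edgeR adjusted p = 0.0168). It was no longer called without soft gel 1 (edgeR adjusted p = 0.0505), soft gel 2 (0.0782) or rigid dish 2 (0.0738), and with limma on log2(TPM + 1) (0.0543) or log2(TPM + 0.1) (0.0757). Over 16 alternatives its adjusted p ran from 4.24e-06 to 0.0856. Within each library, PLAU exceeded PLAUR in TPM by a ratio of 6.16, 6.98 and 7.24 in soft gel and 8.26, 8.92 and 8.54 on the rigid dish. These ratios did not overlap between the groups.

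SERPINE2, which encodes protease nexin-1, a serpin of thrombin, urokinase and plasmin made by glia, rose. SERPINE2 (ENSG00000135919, chromosome 2, 223975112 to 224039319, minus strand) reached 313, 301 and 369 TPM in soft gel, against 148, 182 and 199 TPM on the rigid dish. Every soft gel library was above every rigid dish library. On the log2 scale it rose by 0.81 (SE 0.165, edgeR adjusted p = 0.00804), a fold of 1.76. In soft gel its level overlapped with that of PLAU, whereas on the rigid dish PLAU was higher in every library.

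The activators PLAU and PLAT were then summed and set against SERPINE2 within each library. Their ratio in TPM was 1.71, 1.63 and 1.37 in soft gel and 6.09, 6.52 and 5.34 on the rigid dish. It averaged 1.57 ± 0.176 in soft gel and 5.99 ± 0.598 on the rigid dish (SD, n = 3 each). Activator transcripts exceeded those of SERPINE2 in every library, by less in each soft gel library than in any rigid dish library. These ratios are sums over chosen genes and are given without a test.

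**Figure D2:**
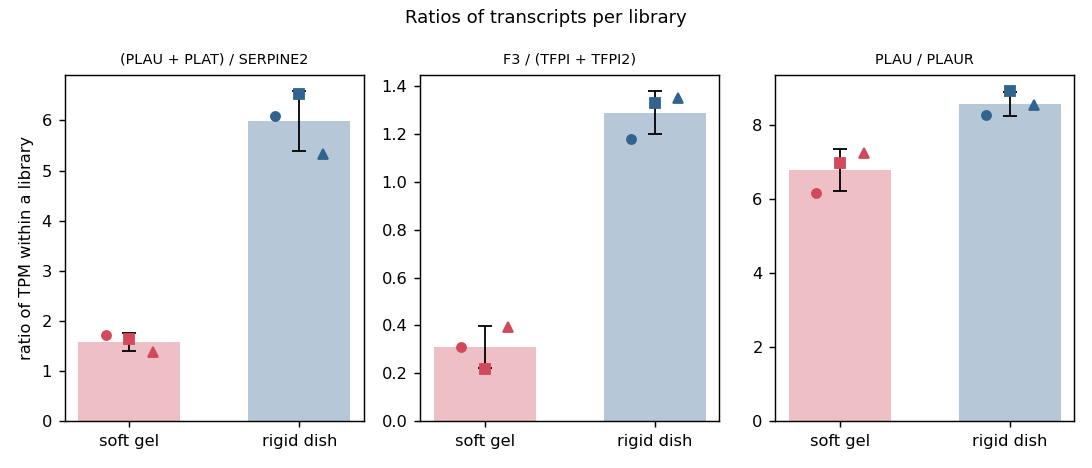
Ratios of TPM within each library, with soft gel left of rigid dish. Bars are means, error bars are SD (n = 3) and points are libraries. The ratio of F3 to TFPI plus TFPI2 averaged 0.308 in soft gel and 1.29 on the rigid dish.

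Tissue factor RNA fell about as far as that of the plasminogen activators. F3 (ENSG00000117525, chromosome 1, 94529225 to 94541800, minus strand) was at 28.5, 20.3 and 29.4 TPM in soft gel, against 72.3, 52.7 and 40.7 TPM on the rigid dish. The groups did not overlap, and rigid dish 1 was the highest library, the reverse of PLAU and PLAUR. The log2 fold change was -1.20 (SE 0.162, edgeR adjusted p = 0.00164), a fold of 0.434. The call was lost on log2(TPM + 0.1) with limma (adjusted p = 0.0585, and 4.81e-14 to 0.0882 over 16 alternatives). By mean TPM it ranked 4775 among protein-coding genes in soft gel and 2487 on the rigid dish.

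Of the Kunitz-type inhibitors, TFPI2 rose and TFPI did not pass the test. TFPI2, a matrix-associated inhibitor of plasmin and trypsin with weak activity on tissue factor complexes, lies on chromosome 7 (ENSG00000105825, 93885396 to 93890991, minus strand). It reached 71.7, 67.2 and 62.1 TPM in soft gel, against 46.1, 30.1 and 22.4 TPM on the rigid dish. All soft gel libraries were above all rigid dish libraries, which themselves spread widely. The log2 fold change was 0.95 (SE 0.166, edgeR adjusted p = 0.0047), a fold of 1.93. This call was lost on log2(TPM + 0.1) with limma (adjusted p = 0.0603, and 3.03e-07 to 0.0909 over 16 alternatives). TFPI2 shares 44 exonic bases with GNGT1 on the opposite strand, which was listed at 3.84 to 9.49 TPM in soft gel and 3.32 to 5.30 TPM on the rigid dish.

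TFPI, the main inhibitor of the tissue factor and factor VIIa complex (ENSG00000003436, chromosome 2, 187464230 to 187565760, minus strand), overlapped between the groups. It was at 20.2, 25.4 and 12.6 TPM in soft gel, against 15.0, 9.52 and 7.80 TPM on the rigid dish. Soft gel 3 was below rigid dish 1. The log2 fold change was 0.74 (95% interval 0.11 to 1.36, unadjusted p = 0.0251, edgeR adjusted p = 0.0715). Without soft gel 3 it was called higher (0.94, edgeR adjusted p = 0.00868), and without soft gel 2 its log2 fold change was 0.39 (adjusted p = 0.295). DESeq2 (adjusted p = 0.0347) and a fit with no low-count filter (0.00248) also called it, and over 16 alternatives its adjusted p ran from 0.00248 to 0.295. The authors' deposited table gave TFPI a log2 fold change of 0.60 and an adjusted p of 0.0359, where 8.55% of its 58884 genes were below 0.05.

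The ratio of F3 to TFPI plus TFPI2, in TPM, was 0.31, 0.219 and 0.394 in soft gel and 1.18, 1.33 and 1.35 on the rigid dish. Tissue factor transcripts thus exceeded those of both inhibitors together in each rigid dish library and in no soft gel library. Against TFPI alone the ratio was 1.52 ± 0.778 in soft gel and 5.20 ± 0.357 on the rigid dish (SD, n = 3 each), and soft gel 2 was the only library below 1, at 0.80.

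The protein C arm had 1 expressed receptor. PROCR, the receptor that presents protein C to thrombin and thrombomodulin (ENSG00000101000, chromosome 20, 35172073 to 35216240, plus strand), was at 21.1, 18.1 and 16.1 TPM in soft gel, against 35, 31.7 and 32.5 TPM on the rigid dish. The groups were narrow and did not overlap, and PROCR fell by 0.95 on the log2 scale (SE 0.136, edgeR adjusted p = 0.00214), a fold of 0.518. THBD, which encodes thrombomodulin (ENSG00000178726, chromosome 20, 23045633 to 23049741, minus strand), had 0, 7 and 0 counts in soft gel and 1, 1 and 0 counts on the rigid dish. It fell below the low-count filter, and a difference was not detectable at this depth.

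**Figure D3:**
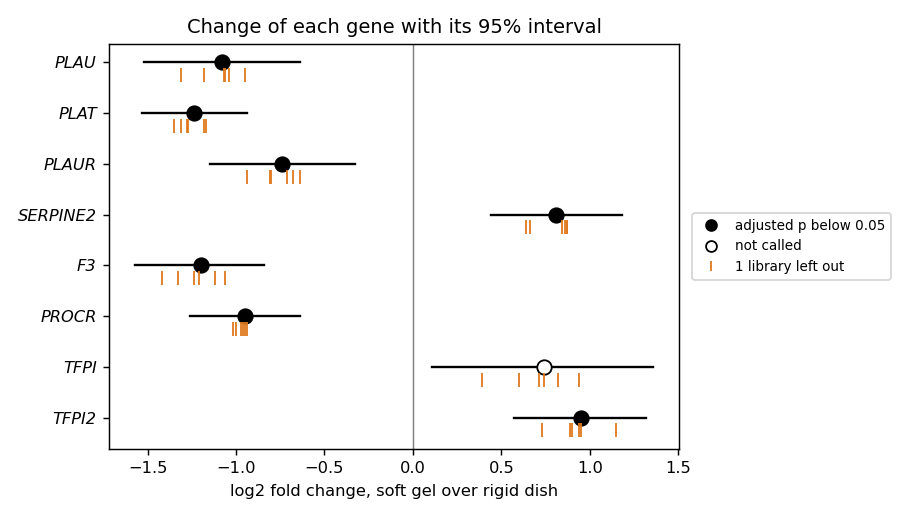
Log2 fold change (soft gel over rigid dish) of the 8 tested genes with its 95% interval from the edgeR fit. Filled points passed an adjusted p of 0.05, and orange ticks give the value with 1 library left out. TFPI, at 0.74, was the 1 tested gene not called, and its ticks ran from 0.39 to 0.94.

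The order of the genes by TPM differed between the groups. In soft gel it ran PLAU (335 ± 10.1), SERPINE2 (328 ± 36.4), PLAT (176 ± 16.4), TFPI2 (67.0 ± 4.77), PLAUR (49.5 ± 4.97), F3 (26.1 ± 5.01), TFPI (19.4 ± 6.47) and PROCR (18.4 ± 2.49), with THBD near 0. On the rigid dish it ran PLAU (662 ± 131), PLAT (389 ± 21.8), SERPINE2 (176 ± 26.2), PLAUR (76.9 ± 12.5), F3 (55.2 ± 15.9), PROCR (33.1 ± 1.71), TFPI2 (32.9 ± 12.1) and TFPI (10.8 ± 3.75), again with THBD last (SD, n = 3). The libraries of PLAU and SERPINE2 overlapped in soft gel, as did those of F3, TFPI and PROCR. On the rigid dish the libraries of PLAUR overlapped with those of F3, and those of TFPI2 with those of both F3 and PROCR.

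The spread between libraries also differed among the genes. On the rigid dish the coefficient of variation of CPM was 28.2% for PLAU and 24.5% for both PLAUR and TFPI2, and 7.52% for PROCR. In soft gel it was 4.50% for PLAU and 0.591% for TFPI2, but 41.7% for TFPI. In CPM, rigid dish 1 was the lowest rigid dish library for PLAU (723 against 1268 and 1224 CPM), and the highest for TFPI2 (45.5 against 33.7 and 28.3 CPM). Leaving that library out gave a log2 fold change of -1.31 for PLAU and 1.15 for TFPI2.

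Among partners of the plasminogen system, receptors and binding proteins moved in both directions. Of 27 listed genes, 26 had a row and 18 were tested, with a median log2 fold change of 0.03. Of these 18, 7 rose and 4 fell, where 15.4% rose and 13.2% fell over all genes tested. KLKB1, plasma prekallikrein, which can activate urokinase, rose to 34.5 ± 6.58 CPM in soft gel, against 7.29 ± 1.40 CPM on the rigid dish (log2 fold change 2.24, edgeR adjusted p = 0.000306). In TPM, KLKB1 averaged 7.08 in soft gel and 1.44 on the rigid dish, far below its CPM in both groups. Which KLKB1 transcripts the reads came from was not tested. ITGB3 (1.35) and ITGAV (0.78), the chains of the vitronectin receptor, rose, as did the sorting receptor SORL1 (0.48). The other risen genes, named after their values were seen, were SERPINI1 (2.00, edgeR adjusted p = 0.00379), IGF2R (0.41) and VLDLR (0.41). SERPINI1 was at 3.82 CPM or less in every library. ANXA2 and S100A10, which together form a plasminogen-binding complex at the cell surface, both fell. S100A10 was at 115 ± 20.5 CPM in soft gel and 246 ± 47.3 CPM on the rigid dish (-1.09, edgeR adjusted p = 0.00331). ANXA2 was at 1828 ± 178 CPM in soft gel and 3370 ± 187 CPM on the rigid dish (-0.88, edgeR adjusted p = 0.00148). ITGA3, an integrin chain that binds the urokinase receptor (-0.82), and ENO1, an enolase that also acts as a plasminogen receptor (-0.60), fell. ANXA2 and ENO1 have processed pseudogenes of similar sequence, so their counts are less certain. PLG, which encodes plasminogen itself, had 5 to 9 counts in soft gel and 1 to 3 counts on the rigid dish, and was not tested. With 1 library left out, 4 genes rose without soft gel 1, soft gel 3, rigid dish 2 or rigid dish 3, and 3 rose without soft gel 2. Leaving out rigid dish 1 gave 7 fallen genes.

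Of 32 listed coagulation and anticoagulant partners, 17 were tested, 3 rose and 2 fell, and 12 were not called, a share of calls close to the 28.6% over all genes tested, with a median log2 fold change of 0.01. PROS1, protein S, the cofactor of activated protein C and of TFPI, rose to 38.7 ± 5.32 CPM in soft gel, against 12.5 ± 1.39 CPM on the rigid dish (1.64, edgeR adjusted p = 0.00038). VKORC1L1, a vitamin K epoxide reductase, fell (-0.38, edgeR adjusted p = 0.0254). The other calls, named after their values were seen, were PROC (2.59), F10 (1.94) and F13A1 (-1.94), each at 1.46 CPM or less in every library. The thrombin receptor gene F2R and the protease receptor gene F2RL1, also named after their values were seen, had log2 fold changes of 0.27 and 0.01 (edgeR adjusted p = 0.091 and 0.96). F7, F9, F2RL3 and the fibrinogen genes FGA, FGB and FGG had 0 counts in every library. Leaving out rigid dish 2 or any single soft gel library left 1 risen gene. Fallen genes numbered 1 without soft gel 1, soft gel 2 or rigid dish 2, and 4 without soft gel 3.

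Among proteases and growth factors that plasmin can activate, 14 of 15 listed genes had a row and 9 were tested, with a median log2 fold change of 0.27. Of these 9, 3 rose and 1 fell, where 15.4% rose and 13.2% fell over all genes tested. BDNF rose (0.71, edgeR adjusted p = 0.0129), and MMP14, the membrane matrix metalloproteinase, fell (-0.72, edgeR adjusted p = 0.0189). PDGFD (2.11, edgeR adjusted p = 0.0033) and MMP10 (1.76, edgeR adjusted p = 0.00554), named after their values were seen, also rose. Both were low, PDGFD at 5.36 CPM in soft gel and 1.24 CPM on the rigid dish. MMP10 was at 5.44 CPM in soft gel and 1.62 CPM on the rigid dish. The count of fallen genes was 0 without soft gel 2 or rigid dish 2 and 2 without rigid dish 1 or rigid dish 3.

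**Figure D4:**
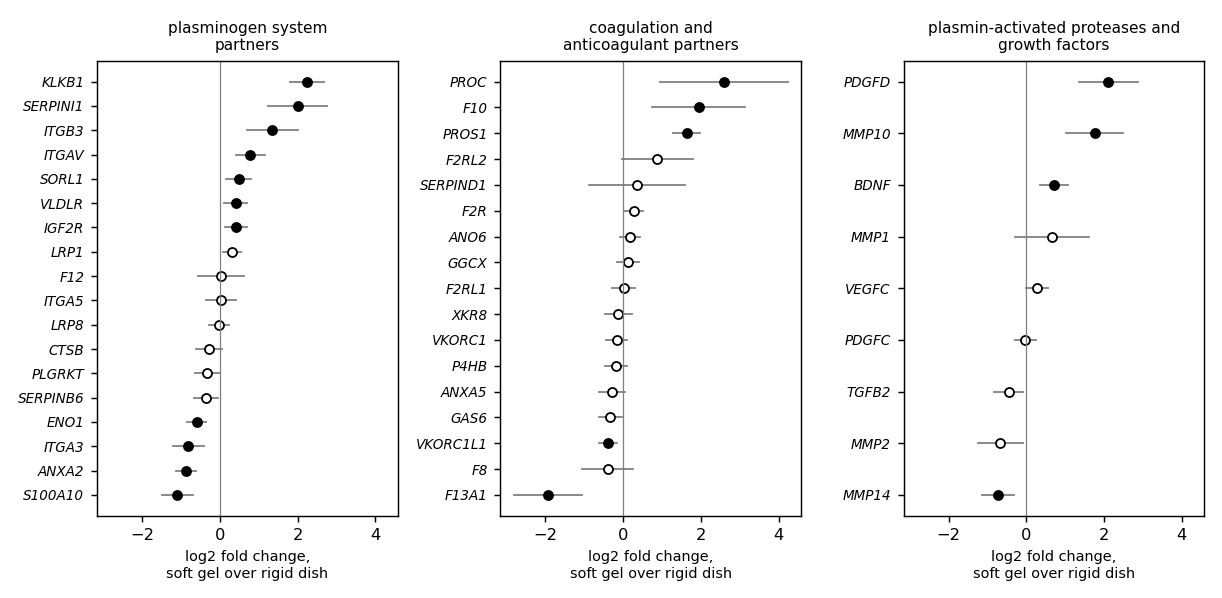
Log2 fold change (soft gel over rigid dish) of tested partner genes in 3 lists, with 95% intervals from the edgeR fit. Filled points passed an adjusted p of 0.05. ANXA2 (-0.88) and S100A10 (-1.09) lie at the bottom of the first list, and PROS1 (1.64) near the top of the second.

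By Pearson r of log2 CPM over the 6 libraries, taken among 9702 protein-coding genes, the pattern most like PLAU was that of ECE1 (r = 0.9998), an endothelin-converting protease, followed by PIPOX (0.9982). CCDC92 (0.998) and SELENOW (0.9958) were most like PLAUR, and GTPBP3 (0.9991) and TPST2 (0.9985) most like PLAT. MCM7, a subunit of the replicative helicase, and the RNA-binding protein gene ELAVL1 were most like F3 (0.999 each). PDCD5 (0.9992) and NUMBL (0.9962) were most like PROCR. Among the genes that rose, SLC39A7 (0.9975) and OGDHL (0.9962) were most like SERPINE2, and MOSPD1 (0.9983) and B3GLCT (0.9968) most like TFPI2. These values are descriptions over 6 libraries that share the group difference and library scaling.

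Library totals ran from 20911363 to 24135884 counts in soft gel and from 23944278 to 25901499 on the rigid dish. Of 8 glioma markers, 7 were tested, 2 rose (SOX2 and CD44) and 3 fell (EGFR, NES and VIM), where 28.6% of all genes tested changed. VIM averaged 2618 CPM in soft gel and 3657 CPM on the rigid dish, but GFAP, the defining astrocyte marker, averaged 0.882 CPM in soft gel and 0.645 CPM on the rigid dish, and OLIG2 had 0 counts. Summed markers of other cell types moved in some lists, and their part in the results was not tested.

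The counts of called markers below stand beside 15.4% higher and 13.2% lower over all genes tested. Endothelial markers (10 genes, 4 tested, 1 lower by edgeR) summed to 6.29 to 7.27 CPM in soft gel and 6.90 to 9.32 CPM on the rigid dish. Their defining genes were near 0, with PECAM1 at 0.212 CPM in soft gel and 0.0399 CPM on the rigid dish, and CDH5 at 0.0562 CPM in soft gel and 0.0149 CPM on the rigid dish. Myeloid markers (7 genes, 3 tested, 2 higher) summed to 40.5 to 47.6 CPM in soft gel and 10.9 to 16.3 CPM on the rigid dish. CD68, also a general lysosomal gene, made up 41.1 CPM of this in soft gel and 12 CPM on the rigid dish. ITGAM was also called higher, at 1.02 CPM in soft gel and 0.173 CPM on the rigid dish (log2 fold change 2.49, edgeR adjusted p = 0.00841). CSF1R was tested and not called (-0.78, edgeR adjusted p = 0.25). AIF1 and TYROBP, too low to test, were above the rigid dish in every soft gel library. The leukocyte gene PTPRC, also not tested, stood at 0.437 CPM in soft gel and 0.236 CPM on the rigid dish, and its groups overlapped, as did those of CD14. Epithelial markers (5 genes, 2 tested, both lower, KRT8 and KRT18) summed to 126 to 145 CPM in soft gel and 233 to 342 CPM on the rigid dish, with EPCAM at 0.0469 CPM in soft gel and 0 CPM on the rigid dish. Fibroblast markers (6 genes, 5 tested, 1 higher and 2 lower) summed to 10.4 to 12.1 CPM in soft gel and 15.3 to 18.1 CPM on the rigid dish, and DCN had 0 counts. Smooth muscle and pericyte markers summed to 14.2 to 20.1 CPM in soft gel and 15.7 to 22.8 CPM on the rigid dish. Of these 5 genes 4 were tested, and 0 were called by edgeR, at an unadjusted p below 0.05 or by DESeq2. Platelet markers (5 genes, 1 tested and higher) summed to 4.50 to 5.40 CPM in soft gel and 2.02 to 2.77 CPM on the rigid dish.

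Of 12 immediate early and dissociation stress genes, 11 were tested. By edgeR 5 of them rose and 0 fell (over all genes tested, 15.4% rose and 13.2% fell). At an unadjusted p below 0.05 or by DESeq2, 0 of them fell. Their summed level was 644 to 902 CPM in soft gel and 443 to 510 CPM on the rigid dish. The AP-1 genes FOSB (log2 fold change 6.02), FOS (5.99) and JUNB (0.61, named after its value was seen) rose, as did DUSP1 (2.37) and EGR1 (2.03), and 1 gene was called lower without rigid dish 1. JUN and ATF3 of the same list, also named after their values were seen, were not called (0.23 and 0.58, edgeR adjusted p = 0.173 and 0.166). Whether these genes bear on F3, PLAUR or TFPI2, whose promoters hold TGANTCA, was not tested.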

How the data were processed

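Total RNA of the 6 DBTRG samples was extracted with TRIzol and made into Illumina TruSeq libraries, per the labels. HISAT2, HTSeq and the build hg38 are named in the submitters' processing notes, with neither version nor role. The authors deposited estimated counts and TPM per gene for 58884 genes, and 11.3% to 13.0% of genes per library held decimal counts. The authors' deposited comparison gave a fold (ratio), a log2 fold change, p-values and adjusted p-values, and its name refers to DESeq2. The quantifier and strand setting are not given in the sources used here.

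Counts were rounded, filtered with filterByExpr (minimum count 10), scaled by TMM and tested by the quasi-likelihood method of edgeR 4.0.16 in R 4.3.3 (limma 3.58.1), with Benjamini-Hochberg adjustment over all genes tested. CPM values use TMM scaling. Ratios and levels between genes use TPM. Positions are from GENCODE release 29, which held 99.5% of identifiers. Overlaps with other genes were examined for the 9 genes only. The 9 genes and the lists were chosen with earlier results of these data known. Named partners are up to 4 genes per direction and list, called and at 5 CPM or more on average. Similar genes are the 2 with the highest r per called gene, at 10 CPM or more. MRC2 and TGFB1, also listed, were not analysed here, and some results are not reported here. The fit was tested on simulated data, where it recovered smaller fold changes less often than larger ones and the share of false calls was somewhat above the threshold. Alternatives were other scaling, filters, tests, a replicate block and leaving out each library (DESeq2 1.42.0). Intervals come from the edgeR fit and include the spread between libraries.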

Additional observations from a re-analysis of the deposited data

How the results depend on the processing

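Of the 8 tested genes, PLAU, PLAT, SERPINE2 and PROCR kept their direction and their call under all 16 alternatives, and no gene changed direction. PLAUR was no longer called with limma on log2(TPM + 1) (log2 fold change -0.61), log2(TPM + 0.1) (-0.62) or log2(TPM + 1) with no low-value filter (-0.61), nor were F3 (-1.06 and -1.03) and TFPI2 (1.09 and 1.06) under both of the last-named. TFPI became called with no low-count filter (0.66), the replicate block (0.66) and DESeq2 (0.67). The cause was not tested. With 1 library left out, log2 fold changes ran from -0.94 to -0.64 for PLAUR and from 0.39 to 0.94 for TFPI.

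Of the 9 genes, 1 was called higher and 3 lower under log2(TPM + 0.1) and under log2(TPM + 1) without a filter. Over all genes, calls on log2(TPM + 1), log2(TPM + 0.1) and log2(TPM + 1) without a filter were 1217, 952 and 860 higher and 687, 418 and 549 lower, and leaving out 1 library gave 1006 to 3239 higher and 797 to 2925 lower.

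Of the plasminogen system partners, 4, 3 and 3 rose in these 3 TPM fits, and with 1 library left out 3 to 6 rose and 3 to 7 fell. Of the coagulation partners, 1 rose with the 1 CPM filter and with log2(TPM + 0.1) or unfiltered log2(TPM + 1), 0 fell in the 3 TPM fits, and 1 to 3 rose and 1 to 4 fell with 1 library left out. Of the genes that plasmin can activate, 1 rose with log2(TPM + 0.1) or unfiltered log2(TPM + 1), 0 fell in the 3 TPM fits, 2 fell with DESeq2 size factors and 3 with no low-count filter or DESeq2, and 0 to 2 fell with 1 library left out. Of the immediate early genes, 0 to 1 fell with 1 library left out.

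The ratio of PLAU plus PLAT to SERPINE2 was 1.84 in soft gel and 7.06 on the rigid dish in CPM. The ratio of PLAU to PLAUR in CPM was 13 in soft gel and 16.2 on the rigid dish. The ratio of F3 to its inhibitors was 1.52 in soft gel and 5.20 on the rigid dish in TPM with TFPI alone, and 1.58 on the rigid dish in CPM. Soft gel was lower than the rigid dish in each.

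Same-numbered libraries deviated together with correlations of 0.217, 0.00912 and 0.307 (replicates 1, 2 and 3), and differently numbered ones with -0.295 to 0.137. Soft gel 1 and soft gel 3 correlated best with the rigid dish library of the same number, and soft gel 2 with rigid dish 1 (0.137). The labels do not say that equal numbers are pairs, and these values do not settle it. The main fit therefore used no pairs, and the block is given as an alternative. The replicate block called 3499 genes higher and 2943 lower, 2480 and 2123 without it. Of the 9 genes it called 3 higher and 5 lower, with TFPI added, and 4 coagulation partners and 3 plasmin-activated genes lower.

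Depth limits THBD and PLG, which had too few counts for a test.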

Other observations

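For several of the 9 genes the deposited TPM was not in proportion to the count over the deposited gene length. Dividing each count by its TPM, and scaling by the library's median of this quotient per base of deposited length (genes averaging 50 counts or more and above 1 TPM in every library), gave TFPI an implied length of 1979, 2188 and 1777 bases in soft gel and 1910, 2203 and 2289 bases on the rigid dish, against 3859 bases deposited. For F3 the implied length was 2135, 2284 and 2319 bases in soft gel, and 2246, 2251 and 2570 bases on the rigid dish, against 2298 bases deposited. For SERPINE2 it was 2281 to 2460 bases in soft gel and 2153 to 2448 bases on the rigid dish, against 1716 bases deposited. For TFPI2 it was 1746 to 1892 bases in soft gel and 1796 to 1876 bases on the rigid dish, against 1144 bases deposited. PLAU had a narrower range, from 2660 to 2664 bases in soft gel and from 2626 to 2649 bases on the rigid dish, against 2343 bases deposited. Fold changes from counts and from TPM can differ where the implied length varies between libraries. Whether transcript isoforms differ between libraries was not tested.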
